A study of Mus musculus with 120 samples.

Results

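The genes described here are 32 genes of mouse chromosome 8 that lie within 50 Mb of Slc25a4, the gene deleted in ANT1 mice. They were chosen by position and on their difference between ANT1 mice and mice with a mutation in mitochondrial DNA (mtDNA) in these same libraries, out of 894 genes within 50 Mb that have 1 annotated position and 53656 genes in the tables. Their ANT1 differences are therefore a description, with a standard error (SE) and no p-value. Counts of called members in that comparison stand beside the share called over all genes, and nothing is read from them. Tests are given for contrasts that the choice did not use, between mtDNA strains and between exercised and non-exercised mice. An exception is the effect of exercise in ANT1 minus that in the mtDNA strains, which is built from the differences that chose the members. Of the 32 genes, 31 passed the filter on low counts in soleus and 32 in heart; Cenpu did not pass in soleus.

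RNA was sequenced from the soleus, a slow postural muscle of the hind limb, and the heart. All mice were on a C57BL/6EiJ background with intact Nnt. ANT1 mice lack both copies of Slc25a4 (Slc25a4-/-) in every tissue. ND5 mice carry m.12352C>T (S204F) and ND6 mice m.13997G>A (P25L), both in subunits of respiratory complex I. CO1 mice carry m.6589T>C (V421A) in a subunit of complex IV. Exercised mice began at 16 weeks of age and trained for 8 weeks, on alternate days, in sessions of 45 min set to 50% of maximal capacity. The non-exercised mice were only handled, and all were killed 6 days after training ended. Each strain has 6 exercised and 6 non-exercised libraries per tissue, so ANT1 was compared with 18 mtDNA libraries per tissue and arm. The exercised soleus group of every strain holds mice labelled as training responders and as non-responders, which were pooled here. The B6 control strain is not analysed here, so a difference below can lie in either side of the comparison.

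Slc25a4 encodes ANT1, the carrier of heart and skeletal muscle that exchanges ADP and ATP across the inner mitochondrial membrane. A gene deleted by targeting is passed on with the DNA around it, which comes from the strain in which the deletion was made until recombination in backcrosses removes it. Such flanking DNA can differ in sequence from that of the background strain over many genes and can alter their expression in cis. No label names the strain of the targeted cells, and no genotypes were used, so the origin of the DNA around Slc25a4 was not tested. In bulk samples, fewer cells of a type and less RNA per cell cannot be told apart.

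The promoters of 4 genes are shown because their genes stand for the patterns that follow: Crnde was lower in ANT1 mice in both tissues, Ccdc110 differed in opposite directions, N4bp1 was higher in soleus, and Helt is the member nearest to Slc25a4 on its other side. Each run is the 250 bases before the RefSeq start site in GRCm38.p6, on the strand of the gene, and is the reference sequence, not one read from these mice. Capitals mark 3 motifs that were searched on both strands. The first is the CCAAT box, read as ATTGG from the opposite strand. The second is the TATAAA box, read as TTTATA from the opposite strand. The last is the GGGCGG box, read as CCGCCC from the opposite strand.
Crnde (chr8:92356121-92356370, minus strand): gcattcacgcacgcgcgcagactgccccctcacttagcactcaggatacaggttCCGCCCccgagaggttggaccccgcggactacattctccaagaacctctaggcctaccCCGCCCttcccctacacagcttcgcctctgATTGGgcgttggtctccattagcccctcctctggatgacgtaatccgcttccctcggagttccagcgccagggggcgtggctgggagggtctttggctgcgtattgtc
Ccdc110 (chr8:45934369-45934618, plus strand): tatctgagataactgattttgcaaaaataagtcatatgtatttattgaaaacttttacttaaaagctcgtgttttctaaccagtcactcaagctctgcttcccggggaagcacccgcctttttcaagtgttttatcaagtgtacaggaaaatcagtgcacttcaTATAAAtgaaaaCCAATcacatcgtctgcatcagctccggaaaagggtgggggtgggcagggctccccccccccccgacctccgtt
N4bp1 (chr8:86885259-86885508, minus strand): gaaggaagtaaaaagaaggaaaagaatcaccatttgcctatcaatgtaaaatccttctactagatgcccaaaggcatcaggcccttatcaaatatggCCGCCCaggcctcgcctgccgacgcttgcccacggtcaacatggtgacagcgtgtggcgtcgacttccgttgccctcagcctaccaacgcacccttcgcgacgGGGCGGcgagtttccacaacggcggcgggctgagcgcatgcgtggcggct
Helt (chr8:46294672-46294921, minus strand): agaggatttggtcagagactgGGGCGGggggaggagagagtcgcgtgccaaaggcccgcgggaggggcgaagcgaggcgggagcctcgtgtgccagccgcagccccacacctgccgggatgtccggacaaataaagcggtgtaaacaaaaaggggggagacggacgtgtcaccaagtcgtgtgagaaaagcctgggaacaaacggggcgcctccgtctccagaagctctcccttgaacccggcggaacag

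The Ccdc110 window held TATAAA at bases -86 to -81 and CCAAT at -74 to -70, counted back from the start site. TATAAA stood in 12.4% of the 32851 promoters of the RefSeq table, CCAAT in 33.8% and GGGCGG in 32.7%. Crnde held GGGCGG at 2 places and CCAAT at 1, N4bp1 held GGGCGG at 2 places, and Helt held it at 1. The Ccdc110 window was the poorest in G and C, at 44.4%, against 57.6% in N4bp1, 62% in Crnde and 63.6% in Helt. A match of letters is a description and shows no bound factor. The RefSeq table matched 20 of the 32 members.

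Total counts ran from 10.2 M to 20.7 M per soleus library and from 19.7 M to 26.5 M per heart library. Slc25a4 (chr8:46206797-46211284, minus strand, GRCm38) read 4.96 to 22.1 CPM (counts scaled to the library size by the TMM method) in the 12 ANT1 soleus libraries and 1.89 to 6.13 CPM in the 12 ANT1 hearts. In the mtDNA strains it read from 2170 to 4021 CPM in soleus and from 471 to 3892 CPM in heart, so no library overlapped with its label. The lowest of these, mouse B80 (ND5, non-exercised), stands apart: its heart muscle markers summed to 4770 CPM, where the next lowest heart read 27011 CPM. Red blood cell markers were high in it, at 119449 CPM, but reached 131944 CPM in an ND6 heart. Results that rest on it are given with and without it. Markers of extracellular matrix moved with the soleus comparison: their sum was 376 to 862 CPM (median 470) in ANT1 soleus and 543 to 5437 CPM (median 1246) in the mtDNA strains. Fast muscle markers summed to 3318 to 12159 CPM in ANT1 and 8313 to 20516 CPM in the mtDNA strains there, and the atrium list to 10.1 to 20.9 CPM and 43.3 to 631 CPM, with no overlap. Higher by their sums in ANT1 soleus were the brown adipocyte list (602 to 1028 against 237 to 776 CPM), the red blood cell list (262 to 627 against 121 to 590 CPM) and the skeletal muscle list (37114 to 47955 against 32636 to 42576 CPM). Only 4 of the 6 brown adipocyte genes were tested, with 3 higher and 1 lower in each arm at an adjusted p under 0.05. Of the 6 skeletal muscle genes, 3 were higher without and 2 with exercise, and 1 was lower in each arm. Only 3 of the 6 atrium genes were tested in soleus, and all 3 were lower in each arm. Among the 6 fast muscle genes, 4 were lower and 1 higher without exercise, and 5 were lower and 0 higher with it. The part of these lists in the soleus values was not tested. Atrial markers varied within the hearts, from 70.2 to 24911 CPM in ANT1 and from 27.2 to 36465 CPM in the mtDNA strains.

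The members' ANT1 differences stood on very unequal backgrounds in the 2 tissues. A gene is called here when its adjusted p in edgeR's quasi-likelihood test is under 0.05. In non-exercised soleus 23 of 31 members were called (5 higher, 18 lower in ANT1) where 47.7% of all tested genes were called, and in exercised soleus 23 of 31 (6 higher, 17 lower) where 43.5% were. In non-exercised heart 17 of 32 members were called (5 higher, 12 lower) where 0.916% of all tested genes were, and in exercised heart 17 of 32 (5 higher, 12 lower) where 4.78% were. Nothing is read from these counts, since the members were chosen on these differences. The heart shares over all genes moved with single libraries. With 1 library left out, 68 to 242 genes were called in non-exercised heart, in place of 144. In exercised heart 186 to 1155 were called, in place of 751. The median size of the members' log2 difference was 0.62 and 0.63 in non-exercised and exercised soleus, beside 0.27 and 0.25 over all tested genes. In heart it was 0.41 and 0.32, beside 0.14 and 0.17.

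Across both tissues, 12 members were called in 1 direction in all 4 comparisons (2 higher, 10 lower), as were 0.553% of the genes tested in both tissues. A shift is called shared where all 4 log2 differences have 1 sign and each is at least 0.25 in size. It held for 10 of 31 members, 2 higher and 8 lower, and for 7.34% of all genes tested in both tissues. The 10 are Hgsnat, Hook3, Fut10, Gsr, Leprotl1, Zdhhc2, Ankrd37, Rnf150, Rnaseh2a and Crnde. The smallest of their 4 differences was 0.30 in Hook3, the member just inside the limit, while Tti2 and Scoc, with a smallest difference of 0.23, lie just outside. Another 4 members differed in soleus only by this limit (Sorbs2, Primpol, Tenm3 and N4bp1) and 2 in heart only (Cldn23 and Dlc1). The 2 that differed in opposite directions were Pdlim3 and Ccdc110. The heart values of Pdlim3 were not called, and only against CO1 were they positive in both arms. The other 13 that were tested in both tissues fell in none of these classes, and 3 of those were under 0.25 in all 4 comparisons (Ufsp2, Snx25 and Wwc2).

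**Figure D1:**
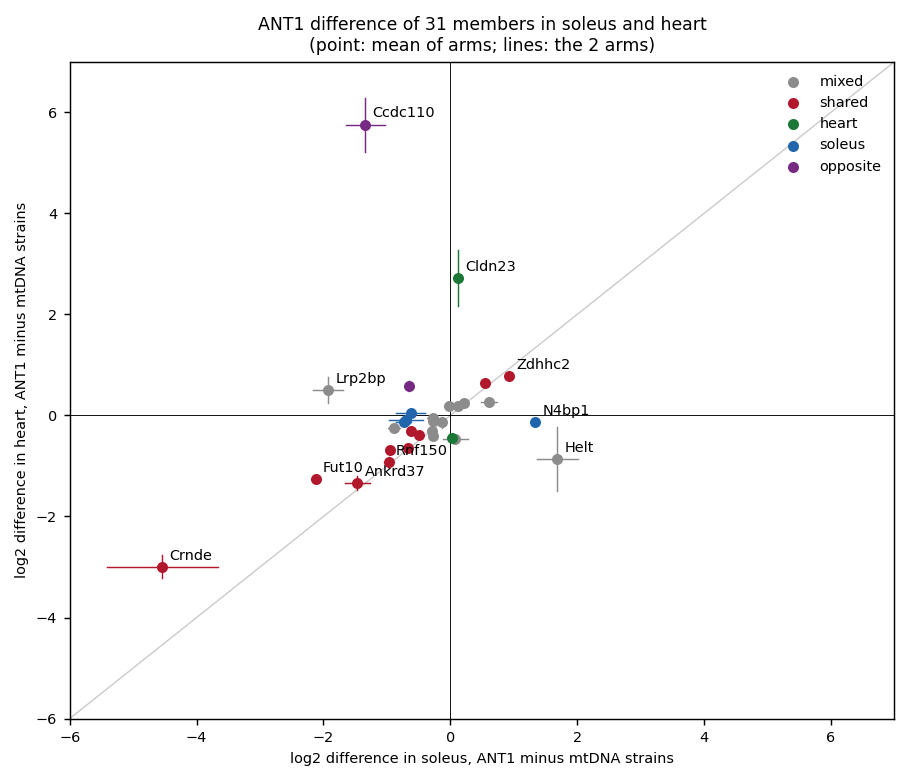
Mean log2 difference of ANT1 minus the mtDNA strains in soleus (x axis) against heart (y axis) for the 31 members tested in both tissues; each line joins the non-exercised and the exercised value, and colour gives the class. Leprotl1, Rnf150 and Rnaseh2a, with a shared shift, lie on the diagonal, while Crnde, also shared, and Ccdc110, Cldn23, N4bp1, Lrp2bp and Helt lie away from it.

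Crnde (chr8:92326033-92356120, minus strand), a long non-coding RNA, showed the lowest level in ANT1 relative to the mtDNA strains of all members. In non-exercised soleus the 6 ANT1 libraries held 0 to 0.104 CPM (median 0), and the 18 mtDNA libraries 0.944 to 2.99 CPM (median 1.54). In exercised soleus they held 0 to 0.224 CPM against 1.09 to 2.26 CPM. In non-exercised heart ANT1 read 0.0567 to 0.381 CPM against 0.926 to 2.7 CPM, and in exercised heart 0 to 0.291 CPM against 0.553 to 2.01 CPM. Every ANT1 library was thus below every mtDNA library in both tissues and arms. Only 2 counts of Crnde fell in the 6 non-exercised ANT1 soleus libraries, beside 504 in the 18 of the mtDNA strains, a ratio of 0.0179 with an exact 95% interval from 0.00216 to 0.065 that covers counting error only. In heart the ratio of pooled CPM was 0.108 (0.0658 to 0.169) without and 0.144 (0.0897 to 0.221) with exercise. The fitted log2 differences were -5.42 (SE 0.41) and -3.67 (SE 0.33) in non-exercised and exercised soleus and -3.22 (SE 0.34) and -2.77 (SE 0.34) in heart. With 2 counts in the non-exercised ANT1 soleus libraries, the SE of 0.41 is far narrower than the exact interval and understates the uncertainty.

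Of the 7 members of lysosome, Golgi and membrane traffic, 5 had a shared shift, a share that follows from how the members were chosen and shows nothing of membrane traffic at large. Fut10 (chr8:31187331-31261738, plus strand), a member of the fucosyltransferase family, held 0.278 to 1.86 CPM (median 0.779) in non-exercised ANT1 soleus and 3.17 to 5.64 CPM (median 3.87) in the mtDNA strains. In exercised soleus it held 0.449 to 1.19 CPM against 2.92 to 5.24 CPM. The soleus groups did not overlap, and the log2 differences were -2.08 (SE 0.19) and -2.17 (SE 0.19). In heart Fut10 read 0.681 to 1.74 CPM against 1.76 to 6.8 CPM without exercise and 0.652 to 1.98 CPM against 1.55 to 4.46 CPM with it. The exercised hearts overlapped, and the differences were -1.32 (SE 0.23) and -1.19 (SE 0.23).

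Leprotl1 (chr8:34135572-34147033, minus strand), a membrane protein of the endosome and Golgi, was lower by nearly the same log2 amount everywhere: -0.67 and -0.68 in soleus and -0.65 and -0.62 in heart, each with an SE of 0.07. In soleus its ANT1 libraries held 8.33 to 13.2 CPM without exercise, below the 13.4 to 19.2 CPM of the mtDNA strains. In non-exercised heart 13 to 18.7 CPM in ANT1 met 18 to 28.4 CPM, a slight overlap. Hook3, which links cargo to dynein on microtubules, read 55.4 to 64.4 CPM against 82.3 to 99.2 CPM in non-exercised soleus, and 32.3 to 39.7 CPM against 36.2 to 56.2 CPM in non-exercised heart. Its log2 differences were -0.61 and -0.63 in soleus and -0.30 and -0.33 in heart (SE 0.06 each). Hgsnat, the lysosomal enzyme that acetylates heparan sulfate during its breakdown, differed by -0.47 and -0.53 in soleus (SE 0.07 each) and -0.34 and -0.45 in heart (SE 0.08 each).

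Zdhhc2, a palmitoyltransferase, was the only one of these 7 genes that was higher in ANT1 in all 4 comparisons. It held 1.2 to 2.78 CPM against 0.414 to 1.87 CPM in non-exercised soleus, and 5.09 to 7.76 CPM against 1.97 to 8.33 CPM in non-exercised heart. The groups overlapped in both tissues. Its log2 differences were 0.94 and 0.90 in soleus (SE 0.22 each) and 0.82 and 0.73 in heart (SE 0.19 each). Zdhhc2 shares bases with Cnot7 on the other strand, and the labels do not say that strand was kept, so reads of the 2 genes may be mixed. Scoc, a Golgi protein that takes part in autophagy, differed by -0.23, -0.31, -0.40 and -0.41 (SE 0.05 to 0.06) in non-exercised and exercised soleus and heart, and its exercised groups did not overlap in either tissue. Snx25, a sorting nexin and the nearest member on the side of lower coordinates, differed by -0.12, -0.14, -0.04 and -0.24 (SE 0.10 to 0.11) in the same order.

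Among the genes of metabolism and protein modification, Gsr, Rnf150 and Ankrd37 had a shared shift. Gsr (chr8:33652523-33698163, plus strand) encodes glutathione reductase, which restores reduced glutathione. It held 7.79 to 13.9 CPM (median 11.3) in non-exercised ANT1 soleus against 18.7 to 30.1 CPM (median 21.9), and 9.2 to 14 CPM against 20.2 to 28 CPM after exercise. In heart it held 7 to 10.8 CPM (median 8.35) against 10.8 to 17 CPM (median 13.8), and 6.79 to 10.1 CPM against 10.5 to 17.6 CPM after exercise. All ANT1 values were below all mtDNA values within each tissue and arm. The log2 differences were -0.97 and -0.92 in soleus (SE 0.09 each) and -0.72 and -0.65 in heart (SE 0.10 each).

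Rnf150 (chr8:82863356-83091268, plus strand), a membrane protein with a RING finger, lies 36.65 Mb from Slc25a4. It held 6.59 to 23.3 CPM against 17.1 to 33.9 CPM in non-exercised soleus and 7.12 to 17.4 CPM against 17.2 to 32.9 CPM in non-exercised heart. The ranges overlapped in both, and the ANT1 medians, 11.7 and 9.23 CPM, were below those of the mtDNA strains, 23 and 22 CPM. The log2 differences were -0.90 and -1.04 in soleus (SE 0.17 each) and -1.04 (SE 0.17) and -0.82 (SE 0.16) in heart. Ankrd37, an ankyrin repeat protein whose gene is induced by hypoxia, differed by -1.27 (SE 0.29) and -1.66 (SE 0.30) in soleus and -1.19 (SE 0.30) and -1.48 (SE 0.31) in heart. At 0.377 to 3.38 CPM its group medians were low, and 6405 bases of it overlap with Lrp2bp on the other strand. Dctd, the deaminase that turns dCMP into dUMP, differed by 0.49 and 0.73 in soleus (SE 0.30 each) and 0.35 and 0.18 in heart (SE 0.28 each). Ufsp2, a protease that matures and removes UFM1, differed by 0.01 and -0.04 in soleus (SE 0.07 each) and 0.15 and 0.24 in heart (SE 0.05 each).

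Of the 5 genes of DNA replication and chromosomes, Rnaseh2a (chr8:84956610-84969767, minus strand) had a shared shift. It encodes the catalytic subunit of RNase H2, which removes RNA paired with DNA. It held 10.7 to 12.6 CPM (median 11.9) in non-exercised ANT1 soleus against 6.87 to 10.1 CPM (median 8.32), and 10.5 to 15 CPM against 7.48 to 10.1 CPM after exercise. In heart it held 14.4 to 17.2 CPM against 8.22 to 14 CPM, and 14 to 19.3 CPM against 7.19 to 12.3 CPM after exercise. Within each tissue and arm every ANT1 library was above every mtDNA library. The log2 differences were 0.49, 0.60, 0.60 and 0.68 (SE 0.07 to 0.08) in non-exercised and exercised soleus and heart.

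Rnaseh2a shares 181 bases with Prdx2 on the other strand, so some of its reads may be those of Prdx2. Prdx2, a peroxiredoxin, was no member and read far more: 260 to 289 CPM against 142 to 174 CPM in non-exercised soleus. Its log2 differences without exercise were 0.81 in soleus and 0.37 in heart. Gins4, part of the helicase that opens DNA for replication, differed by 0.22, 0.22, 0.29 and 0.19 (SE 0.07 each). Tti2, which helps to fold large kinases of the DNA damage response, differed by -0.23, -0.34, -0.30 and -0.31 (SE 0.07 to 0.10). It shares 5240 bases with Mak16 on the other strand, so reads of the 2 genes may be mixed. Primpol, a primase that restarts stalled replication, differed by -0.96 (SE 0.24) and -0.43 (SE 0.22) in soleus and by -0.08 and -0.11 (SE 0.18 each) in heart. Cenpu, a centromere protein, did not pass the filter in soleus and differed by -0.43 (SE 0.44) and 0.05 (SE 0.42) in heart. Primpol and Cenpu share 4414 bases on opposite strands, so their reads may be mixed too. Proliferation markers summed over both arms to 0.408 to 3.43 CPM in ANT1 soleus and 0.734 to 28.5 CPM in that of the mtDNA strains, and their part in these values was not tested.

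**Figure D2:**
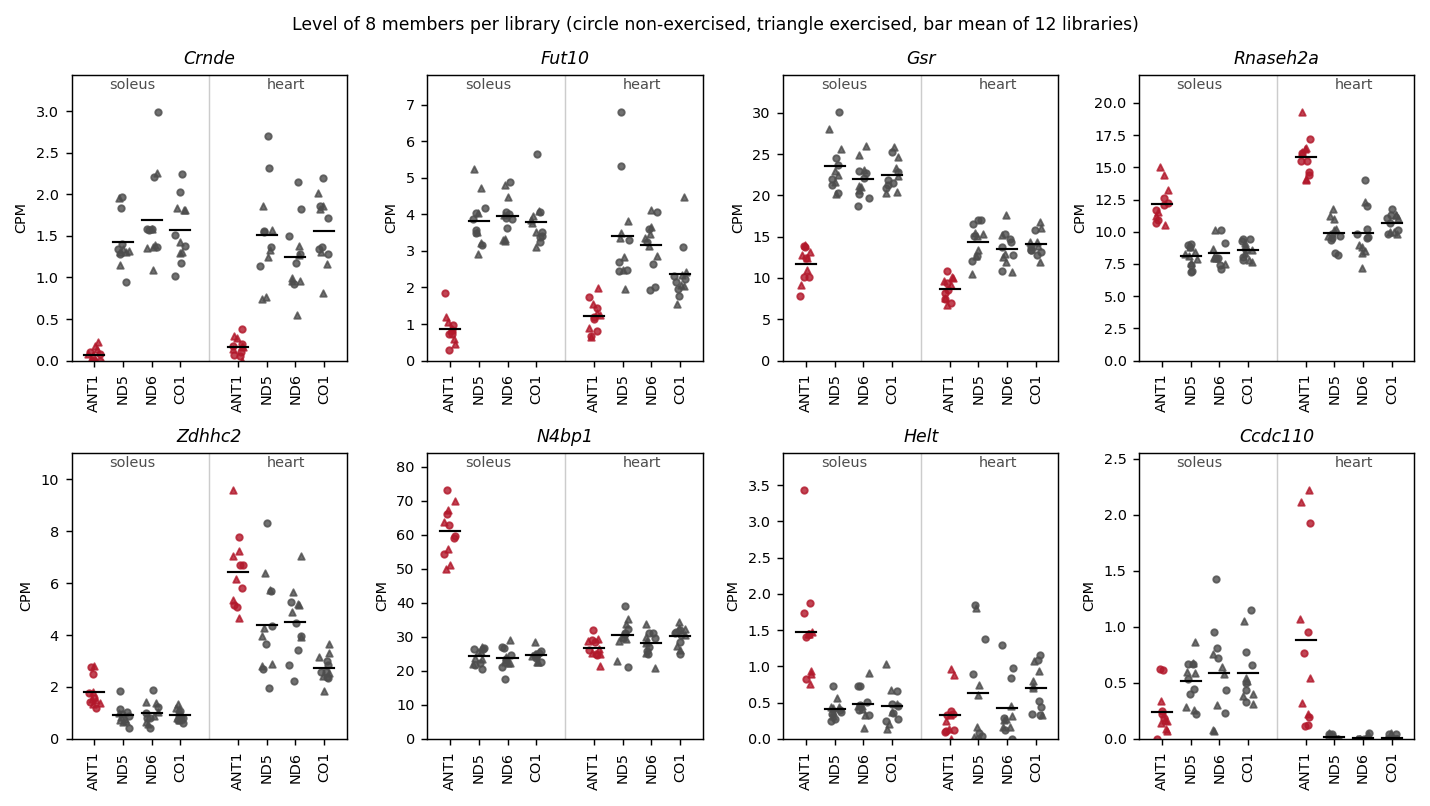
Level in CPM (y axis, linear, from 0) of 8 members in each library by strain, soleus on the left and heart on the right of each panel; red points are ANT1, circles are non-exercised, triangles exercised, and bars are means of 12 libraries. With both arms pooled, Crnde and Rnaseh2a separate ANT1 from the other strains within both tissues, and Fut10, Gsr and N4bp1 in soleus. Ccdc110 does so in heart, where the other strains are near 0.

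N4bp1 (chr8:86808160-86885258, minus strand), a ribonuclease that restrains innate immune signals, differed in soleus and not by the same amount in heart. In non-exercised soleus the ANT1 libraries held 54.2 to 73.1 CPM (median 61.2) against 17.5 to 27 CPM (median 24.5), and after exercise 50 to 69.8 CPM against 22.1 to 29.2 CPM. Every ANT1 soleus was above every mtDNA soleus. In heart 24.8 to 31.9 CPM stood against 21.2 to 39.2 CPM, and 21.5 to 29.4 CPM against 20.8 to 35.2 CPM after exercise, so that the groups overlapped. The log2 differences were 1.38 and 1.29 in soleus (SE 0.07 each) and -0.10 and -0.17 in heart (SE 0.09 each). The soleus effect minus the heart effect, over both arms, was 1.51 on the log2 scale (SE 0.09).

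The other 3 innate immune genes had smaller differences than N4bp1 in soleus. Mfhas1, a leucine-rich repeat protein, differed by -0.48 and -0.45 in heart (SE 0.11 each) and by 0.28 and -0.12 in soleus (SE 0.13 each). Irf2, a repressor of interferon genes, differed by -0.19 and -0.37 in soleus and -0.13 and 0.03 in heart (SE 0.08 each). Tlr3, the receptor for double-stranded RNA, differed by -0.23 and -0.33 in soleus (SE 0.20 each) and -0.13 and -0.09 in heart (SE 0.14 each). Macrophage markers summed to 14.4 to 43.6 CPM over both arms in ANT1 soleus and 13.4 to 140 CPM in that of the mtDNA strains, and their part was not tested.

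Ccdc110 (chr8:45934619-45944145, plus strand), a coiled-coil protein, was near 0 in the hearts of the mtDNA strains. The 18 non-exercised hearts of those strains held 6 counts in all and the 18 exercised ones 4, with 0 to 0.0519 CPM and 0 to 0.0561 CPM per library. The 6 non-exercised ANT1 hearts held 77 counts (0.113 to 1.93 CPM, median 0.481) and the 6 exercised ones 135 counts (0.22 to 2.22 CPM, median 0.808). Every ANT1 heart was above every mtDNA heart. The ratio of pooled CPM was 48.1 (exact 95% interval 21.1 to 135) without and 123 (46.8 to 457) with exercise, counting error only, and the counts per ANT1 library spread widely around it. In soleus the order was the other way: 0 to 0.623 CPM in non-exercised ANT1 mice against 0.219 to 1.43 CPM, a ratio of 0.456 (0.272 to 0.723), and 0.072 to 0.337 CPM against 0.0726 to 1.05 CPM after exercise, a ratio of 0.298 (0.145 to 0.551). The soleus groups overlapped.

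Helt (chr8:46292039-46294671, minus strand), a transcription factor with a helix-loop-helix domain and the nearest member to Slc25a4 on the side of higher coordinates, was higher in ANT1 soleus. Its 6 non-exercised ANT1 libraries held 0.823 to 3.43 CPM (median 1.58) against 0.244 to 0.736 CPM (median 0.397), with no overlap, and its exercised ones 0.764 to 1.47 CPM against 0.137 to 1.03 CPM. The log2 differences were 2.01 (SE 0.25) and 1.36 (SE 0.27). In heart they were -1.49 (SE 0.79) and -0.23 (SE 0.72), at 0 to 0.958 CPM in ANT1 and 0 to 1.84 CPM in the mtDNA strains. Lrp2bp, which binds the tail of the receptor megalin, differed by -1.69 (SE 0.28) and -2.16 (SE 0.30) in soleus and by 0.77 and 0.24 (SE 0.25 each) in heart. Its exercised soleus groups, at 0.0692 to 0.849 CPM and 0.969 to 2.83 CPM, did not overlap. Within the 6405 bases that it shares with Ankrd37, reads of the 2 genes may be mixed.

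Of the 7 genes of cytoskeleton, adhesion and junctions, Sorbs2 and Tenm3 were classed above as soleus only and Cldn23 and Dlc1 as heart only. Cldn23, a claudin of tight junctions, held 0.19 to 2.76 CPM (median 0.979) in non-exercised ANT1 heart against 0 to 0.448 CPM (median 0.0848), and 0.0532 to 1.89 CPM against 0 to 0.42 CPM after exercise. The log2 differences were 3.28 and 2.17 in heart (SE 0.49 each) and 0.09 (SE 0.44) and 0.14 (SE 0.42) in soleus, and the heart groups overlapped. Dlc1 held 56.7 to 80.6 CPM in non-exercised ANT1 heart against 68.6 to 113 CPM. It differed by -0.47 and -0.44 in heart (SE 0.09 each) and by 0.08 and -0.03 in soleus (SE 0.11 each).

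Lower values in ANT1 soleus were found for Fat1, Sorbs2, Pdlim3 and Tenm3. Fat1, an atypical cadherin, differed by -0.98 and -0.80 (SE 0.23 each). Sorbs2, an adaptor at the Z disc, differed by -0.62 (SE 0.15) and -0.85 (SE 0.16), and overlaps with an antisense transcript. Pdlim3, which binds alpha-actinin, held 128 to 184 CPM against 160 to 404 CPM in non-exercised soleus. Its log2 differences were -0.62 and -0.68 (SE 0.15 each) in soleus and 0.49 and 0.68 (SE 0.44 each) in heart. The non-exercised and exercised heart values of Pdlim3 were 2.04 and 1.74 against CO1 alone. They were -0.34 and 0.48 against ND5 alone and -0.23 and -0.17 against ND6 alone. Tenm3, a teneurin of cell contacts, differed by -0.85 (SE 0.14) and -0.40 (SE 0.13). Wwc2, a scaffold of the Hippo pathway, differed by 0.14, 0.09, 0.16 and 0.20 (SE 0.07 to 0.08) over the 4 comparisons.

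The extracellular matrix markers, lower in ANT1 soleus, moved with several of these soleus values. With the matrix score as a covariate the Fat1 difference was -0.06 in non-exercised and 0.11 in exercised soleus, that of Pdlim3 was -0.17 and -0.25, that of Tlr3 was 0.23 and 0.13, that of Primpol was -0.42 and 0.10, and that of Sorbs2 was -0.30 without exercise. The soleus values of Crnde, Fut10, Gsr, Leprotl1, Hook3, Rnaseh2a, N4bp1 and Helt moved under that covariate by less than the spread between replicates.

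When ANT1 was set against each mtDNA strain on its own, in 12 comparisons per gene over strains, arms and tissues, 16 of 31 members kept 1 sign throughout, 4 of them higher in ANT1 and 12 lower, as did 18.1% of all genes tested in both tissues. This again uses the differences that chose the members. Comparisons within a tissue and arm use the same 6 ANT1 libraries. Crnde ranged from -5.64 to -2.49, Fut10 from -2.21 to -0.94, Gsr from -1.05 to -0.60, Rnf150 from -1.15 to -0.66, Leprotl1 from -0.75 to -0.48 and Rnaseh2a from 0.42 to 0.83. Zdhhc2 ranged from 0.32 to 1.24 and Wwc2 from 0.04 to 0.23, always higher in ANT1.

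Groups with no overlap were also counted. These counts use the libraries that chose the members, and nothing is read from them. In non-exercised soleus 9 of 31 members had no overlap between the 6 ANT1 and the 18 mtDNA libraries (3 above, 6 below), where 9.96% of all tested genes had none. In exercised soleus it was 12 of 31 (2 above, 10 below), where 8.55% of all genes had none. In heart it was 5 of 32 (2 above, 3 below) where 0.178% of all genes had none, and 8 of 32 (2 above, 6 below) after exercise where 0.21% had none. With both arms pooled, Ccdc110, Rnaseh2a and Crnde were the members whose 12 ANT1 hearts all lay outside the range of the 36 mtDNA hearts, among 11 such genes of 15723 tested, Slc25a4 included.

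**Figure D3:**
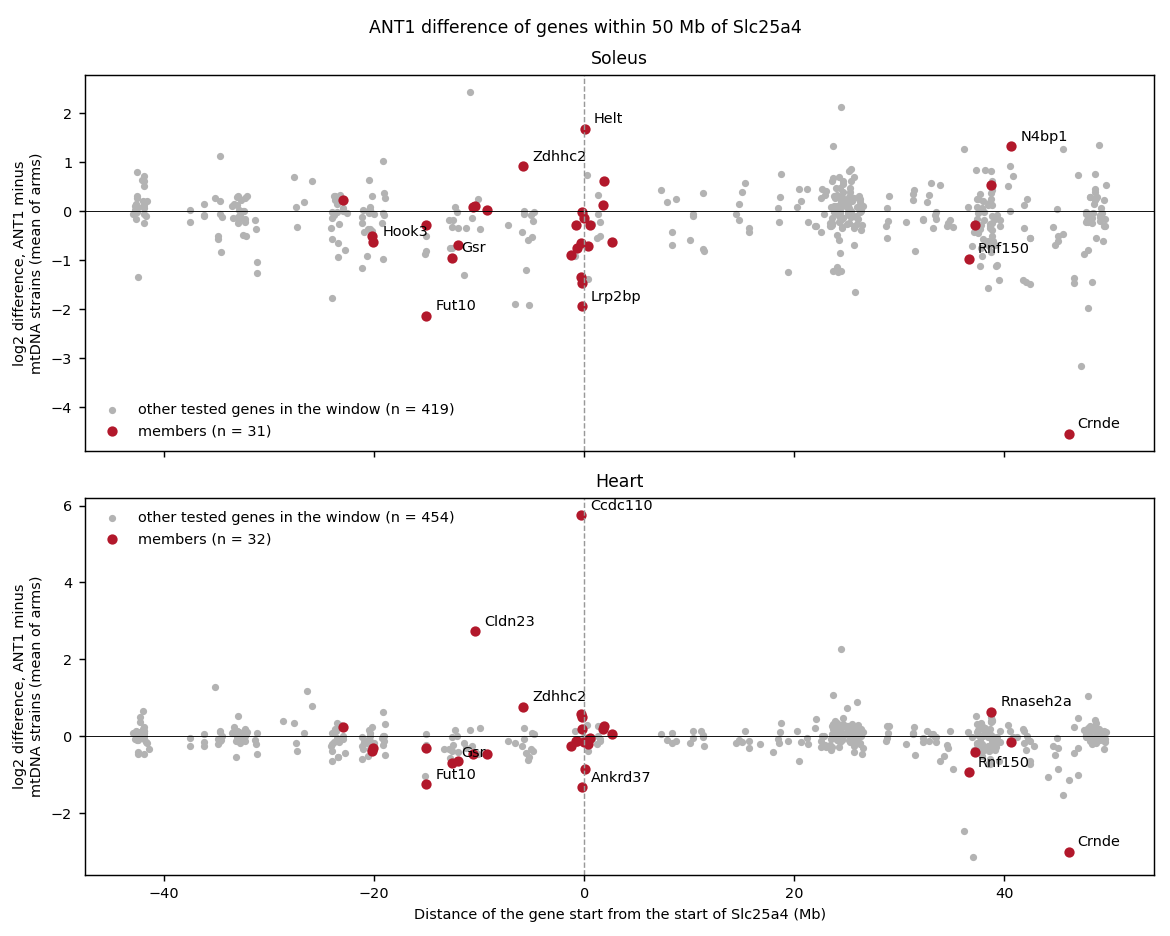
Distance of each gene's start from the start of Slc25a4 (x axis, Mb) against the mean of its non-exercised and exercised log2 differences, ANT1 minus the mtDNA strains (y axis), in soleus (top) and heart (bottom), members in red. The members lie from -22.97 to 46.14 Mb, with none between 2.63 and 36.65 Mb.

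By position, the members form 2 groups: 27 of them lie from 22.97 Mb on the side of lower coordinates to 2.63 Mb on the other side of Slc25a4, and 5 (Rnf150, Scoc, Rnaseh2a, N4bp1 and Crnde) from 36.65 to 46.14 Mb. All tested genes of the window that had a position were then counted, whether members or not, with Slc25a4 itself left out. In non-exercised heart 35 of 486 genes within 50 Mb were called (7.2%), 18 of 454 without the members (3.96%), 0 of 228 on the rest of chromosome 8, and 0.672% of the genes on all other chromosomes. On the 18 other autosomes the share ran from 0.211% on chromosome 14 to 2.01% on chromosome 5. In exercised heart it was 64 of 486 within 50 Mb (13.2%), 47 of 454 without the members (10.4%), 14 of 228 on the rest of the chromosome (6.14%) and 4.74% elsewhere. In soleus the shares within and outside the window lay close together, at 51.8% and 49.4% without exercise and 50.7% and 45% with it.

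Within the window the called heart genes were uneven. In steps of 10 Mb, non-exercised heart had 0 of 32 and 0 of 40 called from 50 to 30 Mb on the lower side. It then had 3 of 47, 6 of 31 and 4 of 27 up to Slc25a4. All of these called genes were members, chosen on this same difference, so nothing is read from the lower stretch. On the upper side it had 0 of 20 and 0 of 21 in the first 20 Mb, 1 of 117 from 20 to 30 Mb, 15 of 83 from 30 to 40 Mb and 6 of 68 from 40 to 50 Mb. Exercised heart also had 0 of 20 and 0 of 21 there, and 14 of 117 from 20 to 30 Mb. Over both arms, 27 window genes were called in heart in each arm (8 higher, 19 lower). Of these, 12 lie from -20.23 to -0.21 Mb, all of them members, and 15 from 24.42 to 46.14 Mb, members and others. At 24.42 Mb Gdf15 stands alone, and the next of the 15 lies at 35.13 Mb. Slc25a4 aside, none of the 94 genes tested between -0.21 and 24.42 Mb was called in both arms. At the edge of the window, Got2 at 49.68 Mb, inside it, differed by 0.56 and 0.52 in soleus and 0.07 and 0.17 in heart, and Cdh11 at 56.57 Mb, outside it, by -1.53 and -1.36 in soleus and -0.20 and -0.76 in heart. The 2 genes were named for their position.

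**Figure D4:**
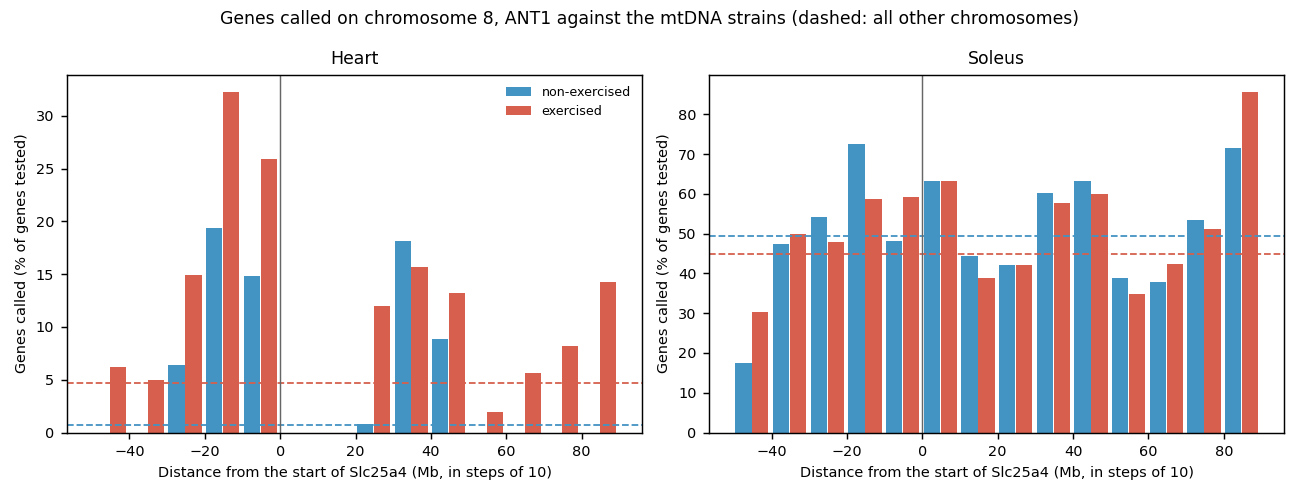
Share of tested genes called for ANT1 against the mtDNA strains (y axis, percent) in steps of 10 Mb of distance from the start of Slc25a4 (x axis), heart on the left and soleus on the right; dashed lines give the share over all other chromosomes. In non-exercised heart the bars stand above the line in 2 stretches. In exercised heart they also do so beyond 60 Mb on the upper side (5.63% to 14.3%, beside 4.74%). On the lower side beyond 30 Mb they do so slightly (5% and 6.25%). In both arms the heart bars are at 0 in the first 20 Mb on the upper side. All genes called on the lower side in non-exercised heart were members, chosen on this same difference. In soleus the bars lie on both sides of the lines.

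In all, 74 genes other than Slc25a4 were called in 1 direction in all 4 comparisons, and 21 of them lie within 50 Mb of it: 12 members and 9 others. Chromosome 5 had the next highest count, with 8, and 13 of the 74 had no position. The 9 others all lie on the upper side, from 24.42 to 45.1 Mb. Gdf15, a cytokine released under mitochondrial stress, read 0.519 to 3.39 CPM against 0.135 to 1.16 CPM in non-exercised soleus and 0.379 to 28.4 CPM against 0.413 to 3.2 CPM in non-exercised heart, with overlap in both. Its log2 difference in non-exercised heart was 2.34 with all libraries and 0.96 without mouse A72. Prdx2, Asna1, which inserts tail-anchored proteins into membranes, and Lonp2, a protease of the peroxisome, were higher in ANT1, with log2 differences of 0.28 to 0.83. Tnpo2, a nuclear import receptor, Cnep1r1, Rbl2, a pocket protein of the cell cycle, Rpgrip1l, of the cilium, and Fto, an RNA demethylase, were lower, by log2 differences from -0.87 to -0.17.

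The mtDNA strains all keep Slc25a4, so pairs of them show how the members vary without its deletion, and these contrasts played no part in the choice of members. Each pair was tested over both arms, 12 libraries against 12, with edgeR's quasi-likelihood test and Benjamini-Hochberg adjustment over all genes. In soleus 1 of 31 members was called in ND5 minus ND6, where 4% of all genes were called: Fat1 was higher in ND5 by 0.62 on the log2 scale (SE 0.18, adjusted p = 0.0441), with 6.25 to 20.6 CPM against 4.65 to 6.65 CPM in non-exercised mice. Without the low count filter this call was lost (0 members called, and 0.962% of all genes). The summed matrix markers were 676 to 5437 CPM in ND5 and 584 to 3601 CPM in ND6, and their part in this was not tested. None of 31 was called in ND5 minus CO1, where 4.64% of all genes were, and none in ND6 minus CO1, where 0% were. At an unadjusted p under 0.05 there were 5 and 0 members there, beside 24.6% and 2.04% of all genes. DESeq2 called 1 and 0 members, beside 993 and 0 of all genes. Dctd came nearest in ND5 minus CO1, at 0.83 (SE 0.26, edgeR adjusted p = 0.0562).

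In heart no member was called in ND5 minus ND6, where 0.00636% of all genes were called. At an unadjusted p under 0.05 there were 0 members, beside 2.65% of all genes, and DESeq2 called 0, beside 2 of all genes. The CO1 hearts differed from the others. In ND5 minus CO1, 8 of 32 members were called where 22.2% of all genes were, and in ND6 minus CO1, 5 of 32 where 17.1% were, shares near those of all genes. Pdlim3 was higher by 1.82 (SE 0.41, adjusted p = 0.00642) in ND5 and by 2.09 (SE 0.41, adjusted p = 0.00511) in ND6 than in CO1. Its non-exercised levels ran from 6.73 to 143 CPM in ND5 and from 6.07 to 95.1 CPM in ND6, and from 7.34 to 13.5 CPM in CO1, so the groups overlapped at the low end. Zdhhc2 was higher by 0.70 (SE 0.17, edgeR adjusted p = 0.00832) and 0.71 (SE 0.17, adjusted p = 0.0101). Tenm3 was higher by 0.61 (SE 0.20, edgeR adjusted p = 0.0316) and 0.58 (SE 0.21, adjusted p = 0.045). Leprotl1 was higher by 0.18 (SE 0.06, edgeR adjusted p = 0.032) and 0.19 (SE 0.06, adjusted p = 0.0274).

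Called in ND5 minus CO1 alone were Fat1 (0.75), Fut10 (0.52), Primpol (0.43) and Scoc (0.16), and in ND6 minus CO1 alone Mfhas1 (-0.27). The sum of the atrial markers had a median of 140 CPM in CO1 hearts (64.5 to 10119), 3463 CPM in ND5 (27.2 to 28964) and 10866 CPM in ND6 (33.4 to 36465). With the atrium score as a covariate, 0 of all genes were called in ND5 minus CO1 and 1 in ND6 minus CO1, and no member. The differences of Pdlim3 were then 0.74 (SE 0.31) and 0.90 (SE 0.32), those of Zdhhc2 0.54 in both (SE 0.19), those of Tenm3 0.27 and 0.18, and that of Fut10 0.12, while Scoc in ND5 minus CO1 was 0.17 (SE 0.05). Without mouse B80, 3 members (Zdhhc2, Fat1 and Pdlim3) were called in ND5 minus CO1, where 5.52% of all genes were, and 6 (Leprotl1, Mfhas1, Zdhhc2, Fat1, Pdlim3 and Tenm3) in ND6 minus CO1, where 24.9% were. Of the 10 members with a shared shift, Fut10, Leprotl1 and Zdhhc2 were called in a pair and the other 7 in none of the 6.

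**Figure D5:**
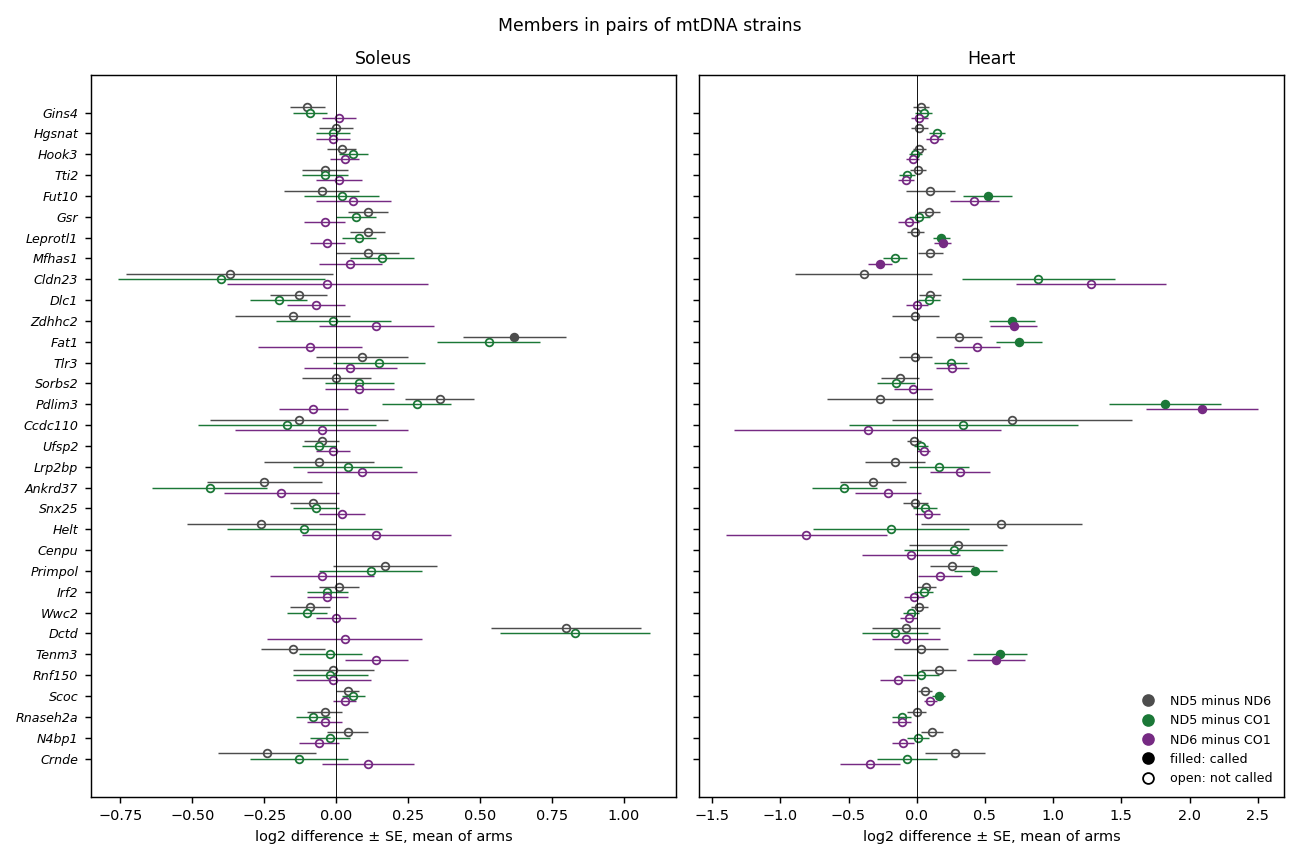
Log2 difference with its SE (x axis) of each member (rows, in order along the chromosome) between pairs of mtDNA strains, mean of both arms, in soleus and heart; filled points were called. The filled points are Fat1 in soleus and, in heart, 9 members in comparisons with CO1, with Pdlim3 the farthest from 0.

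Training was tested as exercised minus non-exercised libraries, in ANT1 mice and in the mtDNA strains, again outside the choice of members. The difference between these 2 effects equals the exercised minus the non-exercised ANT1 difference. It is thus built from the differences that chose the members, and nothing is read from its counts. In ANT1 mice, in the mtDNA strains, and in the difference between the 2, no member was called in either tissue, where 0% of all genes were called in each of the 6 tests with edgeR's quasi-likelihood test. At an unadjusted p under 0.05 there were 1, 1 and 3 of 31 members in soleus, beside 2.51%, 5.52% and 2.85% of all genes, and 0, 2 and 0 of 32 in heart, beside 2.25%, 2.06% and 1.51%. DESeq2 called 0 members in all 6, beside at most 1 of all genes. The lowest adjusted p of a member was 0.901, for Snx25 in the mtDNA soleus (0.18, SE 0.07). The 3 soleus members with a low unadjusted p in the difference between the training effects were Crnde (1.76, SE 0.72), Tenm3 (0.45, SE 0.19) and Mfhas1 (-0.40, SE 0.18), each with an adjusted p of 1. The Crnde value rests on 2 counts in the non-exercised and 8 in the exercised ANT1 soleus libraries. The median size of the training difference over the members was 0.11 in ANT1 soleus and 0.11 in ANT1 heart, beside 0.08 and 0.11 over all genes.

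The size of the ANT1 difference in soleus and in heart can be set side by side for each member. Over both arms, 17 of 32 members were called for the soleus effect minus the heart effect (5 positive, 12 negative), where 25.2% of all genes were, and nothing is read from this count because it is built from the differences that chose the members. The widest gaps were those of Ccdc110 at -6.92 (SE 0.53), Helt at 2.59 (SE 0.54), Cldn23 at -2.57 (SE 0.48) and Lrp2bp at -2.40 (SE 0.27). Crnde at -1.59 (SE 0.41) and Fut10 at -0.86 (SE 0.21) were lower in both tissues and by more in soleus. Values close to 0 were found for Leprotl1 at -0.01 (SE 0.07), Rnf150 at -0.01 (SE 0.17), Rnaseh2a at -0.06 (SE 0.07) and Hgsnat at -0.07 (SE 0.07).

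Levels between genes are comparable only per length, in the deposited FPKM. By the median over the 36 mtDNA libraries of a tissue, the members ran in soleus from 0.16 FPKM for Cenpu to 195 for Pdlim3 and in heart from 0 for Ccdc110 to 114 for Sorbs2. Slc25a4 stood at 2359 FPKM in soleus and 2205 in heart. Crnde had 3.25 FPKM in soleus and 3.34 in heart, Gsr 10.6 and 6.02, Rnaseh2a 12.4 and 14.6, and N4bp1 4.61 and 5.1. Among members above 0 in both tissues, Sorbs2 and Pdlim3 had the widest ratios between them, at 3.21 against 114 FPKM and 195 against 16.3 FPKM in soleus and heart, which were not tested against each other. Some directions depended on the scale. By CPM, 28 members in soleus and 29 in heart had 1 sign in both arms, and median FPKM turned 4 and 3 of these, all from higher to lower in ANT1. The CPM were scaled by TMM and the FPKM were used as deposited, and the part of this in the turns was not tested. In soleus they were Gins4 (7.6 against 10.1 FPKM), Wwc2 (1.84 against 2.5), Dctd (0.345 against 0.42) and Cldn23 (0.165 against 0.32). In heart they were Gins4 (8.21 against 8.43), Wwc2 (6.04 against 6.56) and Ufsp2 (12.8 against 13.2). Rnaseh2a stayed higher by median FPKM in soleus, at 14 against 12.4, but its ranges of 9.75 to 20.7 and 8.43 to 19.6 FPKM overlapped. Crnde ranges did not overlap by FPKM in either tissue, at 0 to 0.37 against 1.83 to 6.24 in soleus and 0 to 0.98 against 1.53 to 6.27 in heart.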

How the data were processed

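RSEM 1.2.28, STAR 2.5.2b and the build mm10 are named in the submitters' processing notes; their settings are not stated in the labels. The authors deposited expected counts and FPKM values per gene and tissue. The expected counts were rounded to whole numbers. Of the columns, 96 matched a sample by mouse code, and 24 in the 2 count tables matched none and were not used. Genes were filtered with filterByExpr (13935 in soleus, 15723 in heart, 16172 over both), scaled by TMM and tested with edgeR 4.0.16 (quasi-likelihood, R 4.3.3), all libraries of a tissue in 1 fit, with Benjamini-Hochberg adjustment. ANT1 was compared with the mean of the 3 mtDNA strains. Each SE is the size of the log2 difference divided by the square root of the F value of its test. At few counts it can be too narrow. FPKM served to compare genes and to check directions on another scale. The fits were tested on simulated data. Positions are from GENCODE M21 (GRCm38), for symbols with 1 entry; 1629 tested genes in soleus and 2203 in heart had none. Promoters are from RefSeq.

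The members, lists and tests were chosen with earlier results of these data known. Named were the 32 members, Slc25a4, marker lists by their sum, and at most 10 other window genes called in 1 direction in all 4 ANT1 comparisons. By their codes, no mouse gave more than 1 library per tissue, and the 120 within-group pairs per tissue held no identical libraries. Judged by code alone, both tissues were sequenced in 19 mice, which pairs them across tissues (limma 3.58.1, voom, correlation 0.0376). Mouse code B80, 1 of these 19, is labelled exercised in soleus and non-exercised in heart, so its pairing and its arm are in doubt. DESeq2 1.42.0 and other alternatives were also run. Intervals are exact 95% binomial ones.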

Additional observations from a re-analysis of the deposited data

Results flagged for a closer look

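In 8 of the 128 groups of 6 ANT1 libraries, 1 library lay far from the other 5 by Dixon's ratio; chance flags about 1 in 20 groups. In exercised soleus, mouse A81 was the highest for Zdhhc2 (2.8 CPM), Dlc1 (26.8 CPM), Ccdc110 (0.337 CPM) and Dctd (1.23 CPM), and mouse A30 the lowest for Primpol (0.679 CPM). In non-exercised soleus, mouse A82 was the highest for Tlr3 (3.64 CPM). In exercised heart, mouse A71 was the lowest for Gins4 (9.52 CPM) and mouse A17 the highest for Snx25 (12.2 CPM).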

How the results depend on the processing

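Of 1494 values of single genes under the alternatives, 1463 moved by less than the spread between replicates, 30 by more, and 1 value of a called gene changed sign: Fat1 in exercised soleus went from -0.80 to 0.11 with the extracellular matrix score as covariate, which accounted for 12 of the 30. Another 39 values of genes not called changed sign, such as Tlr3 and Primpol in soleus with that covariate. It left 16 and 19 members called in non-exercised and exercised soleus, beside 33% and 31.6% of all genes. The 17 members called in non-exercised heart were 8 against ND6 alone (0.242% of all genes) and 11 against CO1 alone (0.413%). Without the low count filter, members called were 0 in ND5 minus ND6 in soleus (0.962% of all genes), 4 in ND5 minus CO1 in heart (8.26%) and 2 in ND6 minus CO1 in heart (5.85%). DESeq2 called 1 member in ND5 minus CO1 in soleus (7.13%). Without mouse B80, ND5 minus CO1 in heart had 3, and with the atrium score, both heart comparisons with CO1 had 0; these 2 alternatives were chosen after seeing the data. At a limit of 0.5, the shared class held 7 members in place of 10 (Hgsnat, Hook3 and Rnaseh2a left it), 1 member differed in heart only and 1 in opposite directions. The causes of these moves were not tested.

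Leaving out each library in turn gave 20 to 24 members called in non-exercised soleus (5930 to 6792 of all genes), 21 to 23 in exercised soleus (5418 to 6191), 12 to 17 in non-exercised heart and 14 to 18 in exercised heart. Calls were lost most often by Dctd (18 of 24 fits) in exercised soleus, and by Tti2 (17), Irf2 (15) and Ccdc110 (10) in non-exercised soleus. In non-exercised heart they were lost by Ankrd37 (6), Gins4, Hgsnat and Tti2 (3 each), and Zdhhc2 and Mfhas1 (2 each). In exercised heart they were lost by Zdhhc2 (2), Mfhas1 (1) and Ufsp2 (1). Ankrd37, Hgsnat and Zdhhc2 are members with a shared shift. The count over all genes in non-exercised heart was 68 without A72, 69 without A23 and 242 without A80, beside 144 with all libraries. In exercised heart, beside 751, it was 186 without A73, 242 without A69, 427 without A76, 451 without A64, 453 to 496 without I57, E50, B13, I59, B11 or B71, and 1155 without A17. With the mouse as a replicate block (limma voom), 14 members were called for the difference between tissues, as in voom without the block. Nothing is read from this count, which is built from the differences that chose the members. Within a tissue, no paired analysis was possible because each mouse gave 1 library per tissue. Low counts limit Crnde, Ccdc110, Cldn23, Helt and Cenpu.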
